A study of Homo sapiens with 6 samples.

Results

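FOS, FOSB, FOSL1, FOSL2, JUN, JUNB, JUND, ATF3, EGR1 and IER3 are AP-1 subunits and immediate early genes, and they were followed in MDA-MB-231 cells after panobinostat. They were chosen by symbol, and all 10 have a row among the 30051 genes of the count table. MDA-MB-231 is an established human cell line of claudin-low, triple-negative breast cancer. The tested cells received panobinostat, a broad histone deacetylase inhibitor, at 50 nM for 24 h, and the controls received the solvent DMSO for 24 h, both in DMEM/F-12 medium with serum. There were 3 RNA libraries per treatment, replicates 1, 2 and 4 for panobinostat and replicates 1, 2 and 3 for DMSO, and the series text calls the conditions independently repeated without saying at which step, so p-values measure the spread between these libraries. All cells are of 1 line, and 1 dose and 1 time were sampled.

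AP-1 is a family of dimeric transcription factors built from basic leucine zipper proteins. FOS proteins do not pair with each other and bind DNA with a JUN protein, whereas JUN proteins can also pair among themselves. The genes are classical targets of growth factor and stress signalling through MAP kinases: FOS, FOSB, JUNB, ATF3, EGR1 and IER3 are induced within minutes of a stimulus and their transcripts are short-lived, while FOSL1 is known for its high and lasting level in cells with active MAPK signalling and in mesenchymal breast cancer cells.

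Libraries held 5389638 to 15106148 counts under panobinostat and 6514568 to 11996519 under DMSO. Levels are given as CPM, counts scaled to a common TMM-adjusted library total. A log2 fold change is panobinostat over DMSO ± SE, and a gene was called at an edgeR adjusted p under 0.05 over all tested genes. Panobinostat replicate 4 lay between the other panobinostat libraries and DMSO. Over the called genes its median log2 distance from DMSO was 60.4% of that in replicates 1 and 2 among genes that rose and 44.9% among those that fell. Of the mesenchymal marker genes used to check the line, VIM was at 2870.0 ± 123 CPM under panobinostat and 2567 ± 9.13 CPM under DMSO (SD, n = 3 each), and CDH1, which defines epithelial junctions, had 0 counts under panobinostat and 1 under DMSO. The mesenchymal list summed to 8257 to 8307 CPM under panobinostat and 8504 to 8590 CPM under DMSO, and 3 of its 9 tested genes rose and 4 fell. The luminal and epithelial list summed to 516 to 554 CPM under panobinostat and 610.0 to 620 CPM under DMSO, and 1 of its 7 tested genes rose and 4 fell. Over all tested genes 30.2% were called higher and 28.6% lower. The 8 leukocyte and fibroblast markers with a row summed to 63.5 to 98.3 CPM under panobinostat and 23.3 to 26.8 CPM under DMSO. Of the 3 tested, the collagen gene COL1A1 (2.13 ± 0.19) and the myeloid marker CD14 (2.21 ± 0.36), which passed the low-count filter only through panobinostat, rose. The third was not called, and 1 of the 3 was called lower without panobinostat replicate 4. The pan-leukocyte gene PTPRC had 2 counts under panobinostat and 0 under DMSO, and the fibroblast genes DCN and LUM had at most 1 in either group. The part of these markers in the members' values was not tested.

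The FOS family moved in opposite directions under panobinostat. Its abundant members FOSL1 and FOSL2 fell 2.31-fold and 2.01-fold, and its scarce members FOS and FOSB rose 2.31-fold and 2.80-fold. In the JUN family JUNB rose, while JUN and JUND were not called. Of the 9 members that could be tested, 4 rose, 2 fell and 3 missed the threshold (edgeR quasi-likelihood test, Benjamini-Hochberg adjustment). Among all 13341 tested genes 30.2% were called higher, 28.6% lower and 58.9% in either direction, and among the members 44.4% higher and 22.2% lower. The values of the treatments did not overlap in 7 of the 9 members (77.8%), against 69.0% of all tested genes. The members' median log2 fold change was 0.07, beside 0.00 for all tested genes. With 9 genes these shares are close to the background, and nothing about the members as a set is read from them.

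**Figure D1:**
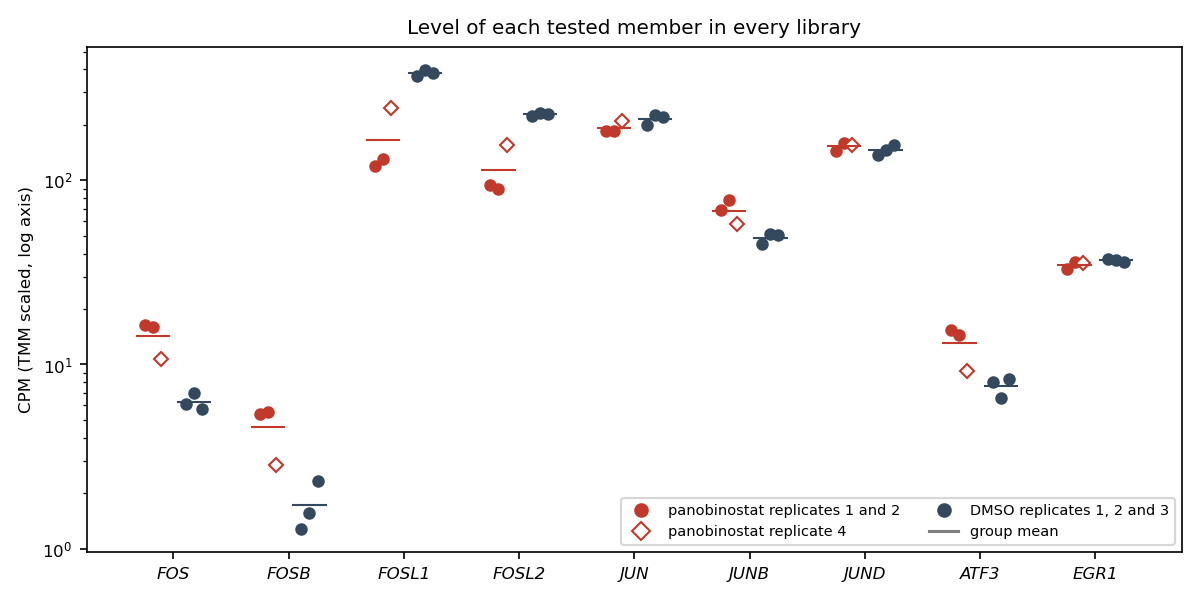
CPM on a log axis for the 9 tested members, with a point for each library and a line for each group mean. FOSL1 and FOSL2 lie lower and FOS, FOSB, JUNB and ATF3 higher under panobinostat (red), with replicate 4 (open diamonds) nearer to DMSO (dark) in each of these 6 genes.

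FOSL1 encodes FRA1, the FOS protein that lacks the transactivation domain of FOS and is tied to invasion in breast cancer cells. It was at 120.3, 129.95 and 248 CPM in panobinostat replicates 1, 2 and 4, against 367, 397 and 383 CPM in DMSO replicates 1, 2 and 3. All panobinostat libraries lay below all DMSO libraries, with replicate 4 at about 2 times the level of the other panobinostat libraries. Its log2 fold change was −1.21 ± 0.25, a 2.31-fold lower level (edgeR adjusted p = 0.00492, lower in 3 of 3 libraries), and −1.63 ± 0.05 without panobinostat replicate 4. FOSL1 was not called when no filter on low counts was used (edgeR adjusted p = 0.0741, the highest over its alternatives). By RefSeq on GRCh38.p14, the source of the other members' positions too, the gene lies on chromosome 11 from 65892049 to 65900545 on the minus strand. In a bulk library, fewer cells that express a gene and less RNA per cell cannot be told apart.

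FOSL2, the gene of FRA2, the other FOS protein without that domain, was at 93.7, 89.9 and 156 CPM under panobinostat, against 223, 231 and 229 CPM under DMSO. The groups did not overlap, and replicate 4 again stood nearest to DMSO. FOSL2 fell by 1.01 ± 0.19 on the log2 scale, to a 2.01-fold lower level (edgeR adjusted p = 0.00387, lower in 3 of 3 libraries), and its change was −1.30 ± 0.05 without panobinostat replicate 4. FOSL2 lies on chromosome 2 from 28392858 to 28417317 on the plus strand. The FOSL1 to FOSL2 ratio per kilobase of exon was 5.45 ± 0.572 under panobinostat and 6.37 ± 0.144 under DMSO (SD, n = 3 each). The ratio was lower in every panobinostat library than in any DMSO library, and the exact two-sided permutation test gave p = 0.1, the smallest that 3 against 3 libraries allow.

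FOS, the founding subunit of AP-1 and the textbook immediate early gene, was at 16.4, 16.0 and 10.7 CPM in panobinostat replicates 1, 2 and 4, against 6.10, 6.97 and 5.74 CPM in DMSO replicates 1, 2 and 3. The groups did not overlap. FOS rose by 1.21 ± 0.20 on the log2 scale, to a 2.31-fold higher level (edgeR adjusted p = 0.00244, higher in 3 of 3 libraries), and 1.37 ± 0.14 without panobinostat replicate 4. FOS lies on chromosome 14 from 75278828 to 75282230 on the plus strand.

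FOSB, whose full-length protein carries a transactivation domain like that of FOS, was counted 82, 30 and 19 times under panobinostat and 15, 11 and 15 times under DMSO. This was 5.39, 5.51 and 2.86 CPM under panobinostat, against 1.27, 1.57 and 2.33 CPM under DMSO. The 2.86 CPM of replicate 4 lay just above the highest DMSO library, so the groups are separate but close. In DMSO replicate 1 FOSB lay under the cutoff of the low-count filter, 1.46 CPM of the unadjusted total. No other tested member did so in any library. Its pass thus rested in part on the panobinostat libraries, where it was higher. FOSB rose by 1.49 ± 0.34 on the log2 scale (edgeR adjusted p = 0.00713, higher in 3 of 3 libraries), with a 95% interval of 0.71 to 2.27, the widest among the members. It was 1.72 ± 0.27 without panobinostat replicate 4. FOSB lies within the span of ERCC1 on the opposite strand, with 0 shared exon bases in GENCODE release 29.

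**Figure D2:**
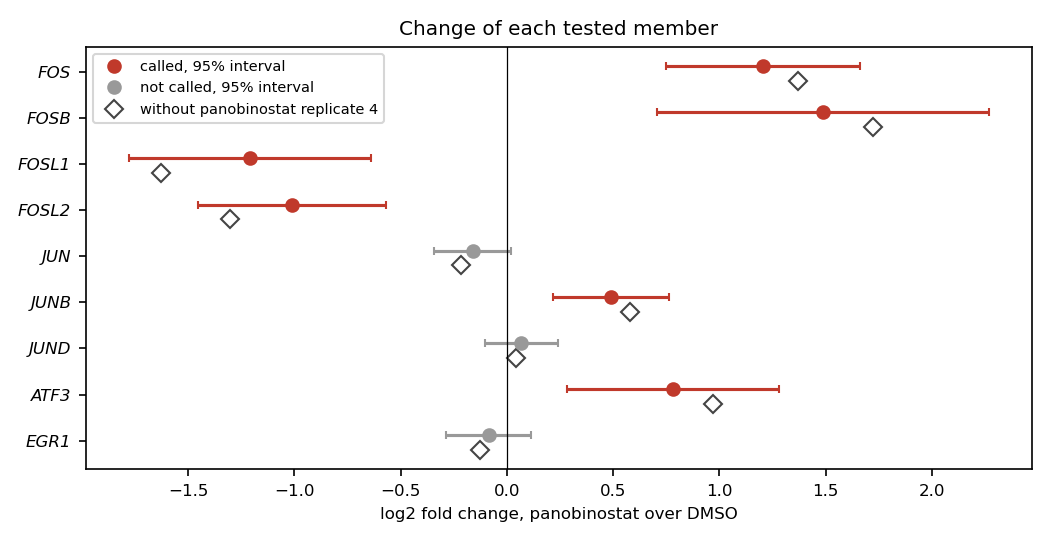
Log2 fold change of panobinostat over DMSO for the 9 tested members, with 95% intervals (circles, all libraries) and the estimate without panobinostat replicate 4 (diamonds). The intervals of JUN, JUND and EGR1 (grey) include 0, and the diamonds lie farther from 0 than the circles in every member except JUND.

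Levels per kilobase of exon allow the genes to be set beside each other. FOSL1 stood at 87.9 ± 37.6 CPM per kilobase under panobinostat and 203 ± 8.12 under DMSO (SD, n = 3 each), above 97.1% of tested genes under panobinostat and 99.2% under DMSO. FOS stood at 4.43 ± 0.981 CPM per kilobase under panobinostat and 1.94 ± 0.196 under DMSO. FOSB was lowest, at 0.826 ± 0.270 CPM per kilobase under panobinostat and 0.310 ± 0.0982 under DMSO. The rise of FOS and FOSB thus started from a level far below that of FOSL1.

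The summed FOS family was at 82.9, 87.4 and 157 CPM per kilobase in panobinostat replicates 1, 2 and 4, against 228, 245 and 237 in DMSO replicates 1, 2 and 3. The panobinostat mean was 46.0% of the DMSO mean, and no panobinostat library reached the lowest DMSO library (exact two-sided permutation p = 0.1, the smallest possible). The summed JUN family was at 167, 182 and 175 CPM per kilobase under panobinostat, against 155, 171 and 173 under DMSO, with overlapping groups (exact permutation p = 0.4). The FOS to JUN ratio of these sums was 0.625 ± 0.237 under panobinostat and 1.42 ± 0.0508 under DMSO, again without overlap (exact permutation p = 0.1, n = 3 each). The FOS family sum per kilobase thus exceeded the JUN family sum in all 3 DMSO libraries and in no panobinostat library, of which replicate 4 came nearest at 0.899.

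**Figure D3:**
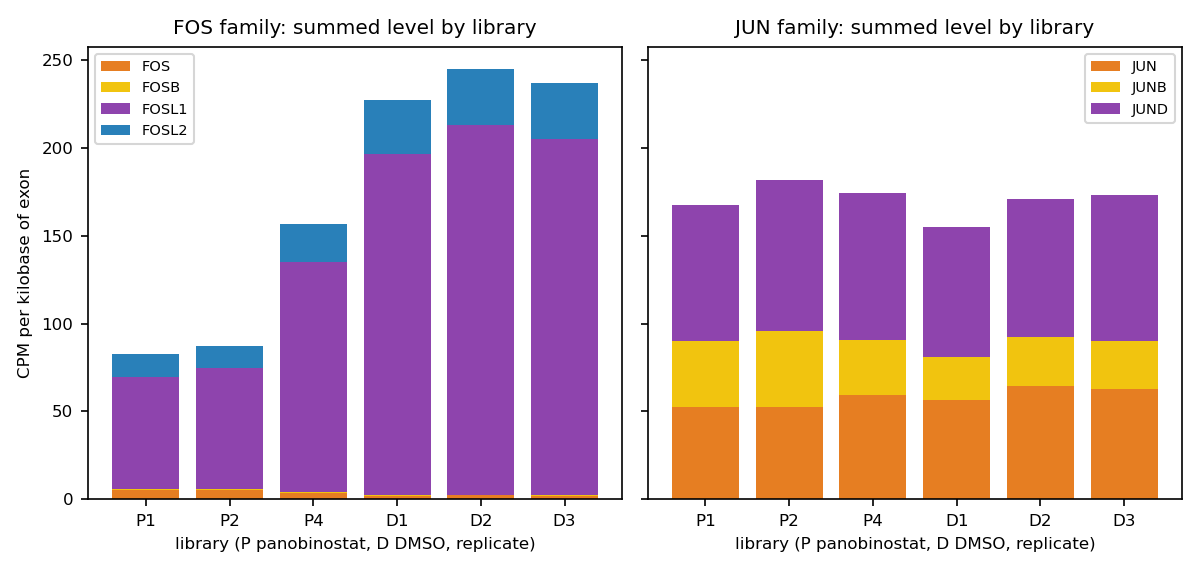
Summed level in CPM per kilobase of exon for the FOS family (left) and the JUN family (right), stacked by gene, in panobinostat libraries (P) and then DMSO libraries (D) with their replicate numbers. The FOS family sum is 82.9 to 157 under panobinostat and 228 to 245 under DMSO, nearly all of it FOSL1 and FOSL2, and the JUN family sums overlap.

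FOSL1 made up 76.9%, 78.8% and 83.7% of the FOS family per kilobase in panobinostat replicates 1, 2 and 4, against 85.4%, 85.8% and 85.6% in DMSO replicates 1, 2 and 3. FOS made up 6.10%, 5.65% and 2.10% under panobinostat, against 0.828%, 0.878% and 0.747% under DMSO. The FOS share was higher in every panobinostat library, yet FOSL1 and FOSL2 together still made up 94.5 ± 2.67% of the family under panobinostat and 99.1 ± 0.0386% under DMSO. Each of these shares differed with an exact permutation p of 0.1, the smallest possible with n = 3 each. The FOSL1 to FOS ratio was 12.6, 13.9 and 39.8 in panobinostat replicates 1, 2 and 4, against 103, 97.8 and 115 in the DMSO libraries.

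JUN, the subunit with the strongest transactivation in its family, was at 185, 186 and 209 CPM in panobinostat replicates 1, 2 and 4, against 199.8, 227 and 221 CPM in DMSO replicates 1, 2 and 3. The groups overlapped, through panobinostat replicate 4 and DMSO replicate 1. The log2 fold change was −0.16 ± 0.08 with a 95% interval of −0.34 to 0.02 and was not called (edgeR adjusted p = 0.112). Without panobinostat replicate 4 it was −0.22 ± 0.05 and was called (edgeR adjusted p = 9.17e-05, and 1.09e-05 to 0.315 over its alternatives). The interval does not reach that of FOSL1, which runs from −1.78 to −0.64.

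JUNB, a JUN protein that often opposes JUN on shared sites, was at 68.9, 78.3 and 57.9 CPM under panobinostat, against 44.9, 51.1 and 50.3 CPM under DMSO. The groups did not overlap. JUNB rose by 0.49 ± 0.12 on the log2 scale, to a 1.40-fold higher level (edgeR adjusted p = 0.00911, higher in 3 of 3 libraries), and 0.58 ± 0.07 without panobinostat replicate 4. JUNB lies on chromosome 19 from 12791486 to 12793315 on the plus strand, and 259 of its 1820 exon bases are shared with HOOK2 on the opposite strand. No source used here states whether reads were counted by strand, so reads of HOOK2 within the JUNB count cannot be told apart.

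JUND, the JUN gene that is expressed steadily in most cells, was at 144, 160.3 and 156 CPM under panobinostat, against 137, 147 and 155 CPM under DMSO. The groups overlapped, and the log2 fold change of 0.07 ± 0.07, with a 95% interval of −0.10 to 0.24, was not called (edgeR adjusted p = 0.460). Per kilobase JUND was the most abundant JUN gene, at 82.3 ± 4.52 CPM per kilobase under panobinostat and 78.5 ± 4.67 under DMSO. It made up 47.1 ± 0.880% of the JUN family under panobinostat and 47.2 ± 1.05% under DMSO. JUNB made up 21.5 ± 2.89% under panobinostat and 16.1 ± 0.278% under DMSO, and JUN 31.3 ± 2.45% under panobinostat and 36.7 ± 0.776% under DMSO, both without overlap between the groups (exact permutation p = 0.1 for each, n = 3 each).

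ATF3 encodes a stress-induced basic leucine zipper protein that pairs with JUN proteins and acts mostly as a repressor. It was at 15.4, 14.5 and 9.18 CPM under panobinostat, against 8.05, 6.55 and 8.38 CPM under DMSO. The groups did not overlap, but replicate 4 was close to DMSO and showed 27.0% of the log2 distance of replicates 1 and 2, the smallest among the 6 called members. ATF3 rose by 0.78 ± 0.22 on the log2 scale (edgeR adjusted p = 0.0154, higher in 3 of 3 libraries) and 0.97 ± 0.14 without panobinostat replicate 4. The call was lost without panobinostat replicate 1 (edgeR adjusted p = 0.0751), without DMSO replicate 1 (edgeR adjusted p = 0.0503) and without DMSO replicate 2 (edgeR adjusted p = 0.0631), and its alternatives ranged from 3.72e-10 to 0.0751.

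EGR1, a zinc finger factor that is induced through serum response elements by ERK signalling, was at 32.8, 36.0 and 35.4 CPM under panobinostat, against 37.3, 36.7 and 36.2 CPM under DMSO. Every panobinostat library lay below every DMSO library, by a margin smaller than the spread among the panobinostat libraries. The log2 fold change of −0.09 ± 0.09, with a 95% interval of −0.29 to 0.11, was not called (edgeR adjusted p = 0.414). Its counts were 930 under panobinostat and 931 under DMSO in all. EGR1 lies on chromosome 5 from 138465479 to 138469303 on the plus strand.

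IER3, an immediate early gene of cell survival, was counted 7, 0 and 4 times in panobinostat replicates 1, 2 and 4 and 3, 7 and 2 times in DMSO replicates 1, 2 and 3, too few to be tested. It lies on chromosome 6 from 30743199 to 30744547, in the major histocompatibility region. Of the 19 protein-coding genes within 200 kb, IER3 included, only 8 have a row in the count table. Counts of its neighbours were also low. The 7 others with a row had 0 to 84 counts in all 6 libraries together, beside 23 for IER3. TUBB, a beta-tubulin gene of dividing cells, was at 0, 0 and 0 counts under panobinostat and 0, 0 and 2 under DMSO, and ABCF1 at 3, 0 and 0 under panobinostat and 1, 1 and 3 under DMSO. Of all protein-coding genes in the table, 29.7% had at most 100 counts. Since genes that dividing cells use were near 0 beside it, the IER3 counts are not read here as its expression. IER3-AS1, on the opposite strand, shares 359 of its 1356 exon bases.

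RefSeq promoter sequences on GRCh38.p14 were found for 8 of the 10 members, and for FOSL1 and IER3 none was used. The 250 bases before the start were searched on both strands for the AP-1 motif TGANTCA, the CRE TGACGTCA, its variant TGACATCA known from the JUN promoter, the shorter TGACGT that the CRE also contains, the EGR motif GCGNGGGCG and the serum response CArG box. Among 35116 promoters, 6.57% hold TGANTCA, 1.65% TGACGTCA, 2.37% TGACATCA, 7.10% TGACGT, 8.41% GCGNGGGCG and 1.16% a CArG box. TGACGT stood in the promoters of FOS, FOSB, FOSL2, EGR1 and JUND, TGACGTCA in JUND, TGACATCA in JUN and ATF3, GCGNGGGCG and the CArG box in EGR1, and TGANTCA in no member's window. A match is a run of letters and not a measured binding site. The 130 bases before the start are shown for FOS, FOSB, FOSL2, JUN, ATF3 and EGR1. Every match that lies within them is in capitals, where ACGTCA is TGACGT read on the other strand. JUND, not called, also carries ACGTCA there, 87 to 82 bases before its start, and its bases are not shown.
FOS, which rose, chr14:75278698-75278827, plus strand: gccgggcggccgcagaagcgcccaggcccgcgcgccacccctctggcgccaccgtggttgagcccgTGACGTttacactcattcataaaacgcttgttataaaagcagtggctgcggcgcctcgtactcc
FOSB, which rose, chr19:45467866-45467995, plus strand: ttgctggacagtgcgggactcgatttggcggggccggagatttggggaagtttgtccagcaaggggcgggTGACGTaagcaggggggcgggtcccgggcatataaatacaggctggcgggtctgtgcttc
FOSL2, which fell, chr2:28392728-28392857, plus strand: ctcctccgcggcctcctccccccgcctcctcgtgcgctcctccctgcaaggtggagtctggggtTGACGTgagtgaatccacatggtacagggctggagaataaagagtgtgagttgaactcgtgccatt
JUN, not called, chr1:58784048-58784177, minus strand: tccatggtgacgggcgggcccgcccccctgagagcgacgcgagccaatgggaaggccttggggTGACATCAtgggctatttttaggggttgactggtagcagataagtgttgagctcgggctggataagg
ATF3, which rose, chr1:212565277-212565406, plus strand: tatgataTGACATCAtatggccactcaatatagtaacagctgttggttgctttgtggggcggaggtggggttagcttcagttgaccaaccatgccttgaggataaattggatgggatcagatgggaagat
EGR1, not called, chr5:138465349-138465478, plus strand: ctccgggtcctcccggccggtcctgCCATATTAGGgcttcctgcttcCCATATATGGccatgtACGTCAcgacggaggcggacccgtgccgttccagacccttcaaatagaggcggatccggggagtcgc
TGACGT starts 64 bases before the FOS start, 60 before the FOSB start and 66 before the FOSL2 start. The letters are thus shared by members that rose and a member that fell, and also by JUND and EGR1, which were not called. TGACATCA likewise stands before JUN, which was not called, and before the upstream start of ATF3, which rose. The ATF3 table entry has a second start, whose window holds none of the motifs searched.

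Most of the other immediate early genes that could be tested rose. Of 37 tested in a list of 44, 23 rose (62.2%, beside 30.2% of all tested genes) and 3 fell (8.11%, beside 28.6%). The other 11 missed the threshold, and the median log2 fold change of the 37 was 0.63. EGR2, NR4A1, NR4A3 and ARC lay under the cutoff of the low-count filter, 1.46 CPM of the unadjusted total, in every DMSO library and passed it only through panobinostat, so their call was bound to be higher if made. Among the other 33 genes 19 rose and 3 fell. EGR2, a zinc finger relative of EGR1, averaged 5.23 ± 1.10 CPM under panobinostat and 0.728 ± 0.369 CPM under DMSO (2.91 ± 0.35). The orphan nuclear receptor genes NR4A1 (2.47 ± 0.40) and NR4A3 (2.38 ± 0.33) also rose. KLF2 (−1.46 ± 0.35) and KLF10 (−0.59 ± 0.13), both Krüppel-like factors, and the ERK pathway antagonist SPRY4 (−0.61 ± 0.12) fell. EGR2, whose call could only be higher, was called and EGR1 was not, and the difference between them was not tested. Of the 7 genes left untested, BTG2 had 97 counts under panobinostat and 4 under DMSO, ID2 had 74 under panobinostat and 8 under DMSO, and EGR3 had 52 under panobinostat and 19 under DMSO. The other 4 were near level or lower, with 8 counts under panobinostat and 12 under DMSO for EGR4, 23 under panobinostat and 30 under DMSO for DUSP2, 24 under panobinostat and 25 under DMSO for SIK1, and 14 under panobinostat and 13 under DMSO for GADD45G. Without panobinostat replicate 4 there were 27 rises and 5 falls.

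Other basic leucine zipper genes of the AP-1 superfamily moved both ways. In a list of 27 with 23 tested, 6 genes rose (26.1%, beside 30.2% of all tested genes) and 10 fell (43.5%, beside 28.6%). The other 7 missed the threshold, and the median log2 fold change was −0.22. ATF5 (−1.57 ± 0.36), a stress-response factor, ATF1 (−0.90 ± 0.18), a CREB relative, and CEBPG (−0.73 ± 0.12), a C/EBP partner, fell. BACH2 (0.88 ± 0.27), a repressor, the small MAF gene MAFK (0.74 ± 0.11) and BATF2 (0.71 ± 0.23) rose. The JUN dimerisation gene JDP2 was not called (−1.33 ± 0.53, edgeR adjusted p = 0.0595), and it was called without panobinostat replicate 4 (−2.25). The rises numbered 3 without panobinostat replicate 1, without DMSO replicate 1 or without DMSO replicate 3.

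Kinase and serum response genes upstream of AP-1 also moved both ways. Of the 28 genes 12 rose (42.9%, beside 30.2% of all tested genes) and 7 fell (beside 28.6% of all tested genes). The other 9 missed the threshold, and the median was 0.13. When each library was left out in turn, rises numbered 9 to 15 and falls 7 to 10. Whether this list as a set differs from all tested genes was not tested. The p38 kinase kinase genes MAP2K6 (5.96 ± 2.33 CPM under panobinostat and 2.08 ± 0.265 CPM under DMSO) and MAP2K3 (1.41 ± 0.15) and the ribosomal S6 kinase gene RPS6KA1 (0.98 ± 0.15) rose. The ternary complex factors ELK4 (−1.06 ± 0.27) and ELK3 (−1.01 ± 0.22), which bind beside the serum response factor, and the JNK kinase kinase gene MAP2K7 (−1.01 ± 0.25) fell. Their partner SRF was not called (0.16 ± 0.07, edgeR adjusted p = 0.0610), and it was called without panobinostat replicate 4 (0.18).

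Of 17 partners and regulators of EGR1 and AP-1, 6 rose (35.3%, beside 30.2% of all tested genes) and 5 fell (29.4%, beside 28.6%). The other 6 missed the threshold, and the median was 0.19. These shares are close to the background, and nothing about this list as a set is read from them. The JNK scaffold gene MAPK8IP1 (2.71 ± 0.23), the repressor gene BCL6 (0.99 ± 0.13) and MEN1 (0.53 ± 0.12), whose product menin binds JUND, rose. The acetyltransferase coactivators CREBBP (−1.09 ± 0.21) and EP300 (−0.80 ± 0.17) and the ubiquitin ligase component DET1 (−0.60 ± 0.22) fell. The falls numbered 3 without any 1 of the DMSO libraries. A further list held 14 factors that bind AU-rich elements or act in the decay of short-lived transcripts. Of these 1 rose (7.14%, beside 30.2% of all tested genes) and 7 fell (50.0%, beside 28.6%). The other 6 missed the threshold, and the median was −0.22. ZFP36, which promotes decay of such transcripts, rose (1.46 ± 0.19), and HNRNPD (−0.63 ± 0.13), ZFP36L2 (−0.59 ± 0.13) and TIAL1 (−0.57 ± 0.13) fell. Rises in this list numbered 2 without panobinostat replicate 4 or without DMSO replicate 1, and falls 4 without DMSO replicate 1.

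Known AP-1 target genes of breast cancer cells fell more often than they rose. Of 29 tested in a list of 36, 9 rose (31.0%, beside 30.2% of all tested genes), 16 fell (55.2%, beside 28.6%) and 4 missed the threshold, with a median of −0.32. PLAU, the urokinase gene, averaged 159 ± 136 CPM under panobinostat and 543 ± 12.5 CPM under DMSO (−1.78 ± 0.49), and its log2 fold change was −2.75 without panobinostat replicate 4. The hyaluronan synthase gene HAS2 (−2.34 ± 0.66) and LIF, a cytokine of the interleukin-6 family (−1.50 ± 0.32), fell, and HAS2 was at −4.04 without that library. The coagulation factor gene F3 (2.24 ± 0.19) and CXCL8, the interleukin-8 gene (1.36 ± 0.14), rose. With no filter the falls numbered 10. Whether FOSL1 has a part in any of these changes was not tested.

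**Figure D4:**
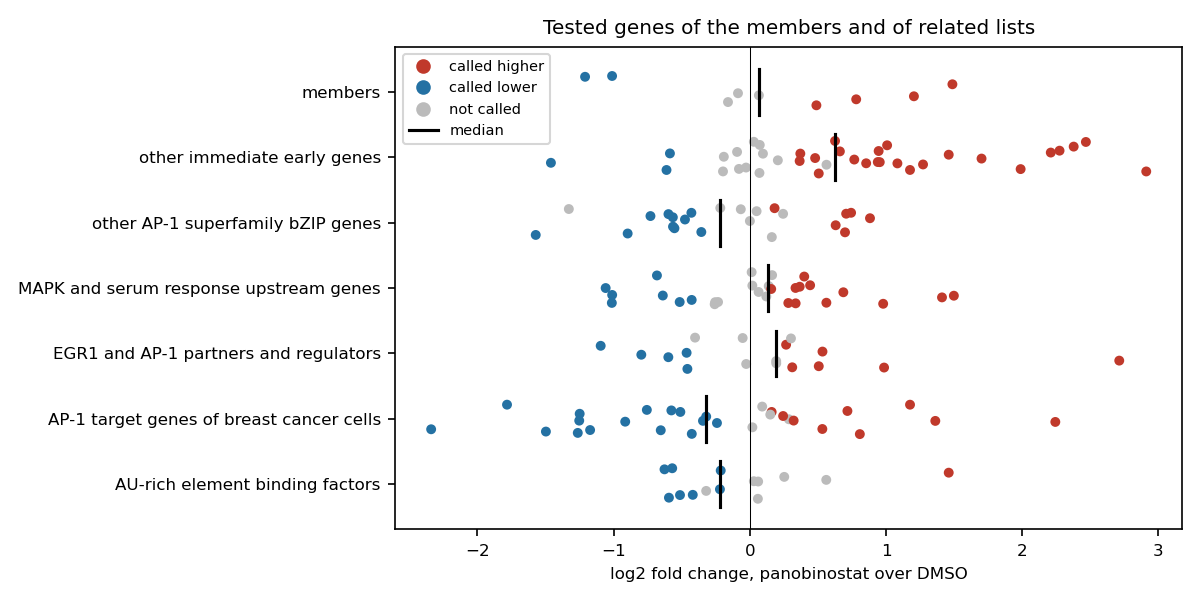
Log2 fold change of panobinostat over DMSO for each tested gene of the members and of 6 related lists, coloured by call, with a line at the median of each list and random vertical spread. The medians are 0.63 for the other immediate early genes, −0.32 for the AP-1 target genes and 0.07 for the members. The first includes 4 genes that passed the low-count filter only through panobinostat.

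The pattern over libraries is shared with many genes. For each called member the 2 genes of at least 10 CPM with the most similar log2 CPM were named, by the Pearson correlation over the 6 libraries. They were HNRNPU and XBP1 for FOSL1, RGMB and MAP4K4 for FOSL2, FGD6 and PLD1 for FOS, ESRRA and APOLD1 for FOSB, MAML3 and PPP1R13L for JUNB, and XKR8 and ELK1 for ATF3, with r of 0.996 to 0.9999. HNRNPU, a nuclear RNA-binding protein gene, followed FOSL1 through replicate 4, at 648, 678 and 1000.05 CPM in panobinostat replicates 1, 2 and 4, against 1270.2, 1344 and 1318 CPM in the DMSO libraries. Such likeness is common here. Of 9780 genes 2648 had an r above 0.95 with FOSL1, 2694 with FOSL2 and 2157 with FOS. Fewer had it with JUNB (875 of 9780), ATF3 (768 of 9780) and FOSB (743 of 9781). The treatment and the intermediate replicate 4 are shared by all of these genes.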

How the data were processed

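The authors deposited counts per gene, from featureCounts by the file's name, and these were taken here as raw and not normalised. The submitters' processing notes name GRCh38.p14 and FastQC; no source used here names the aligner, annotation or strand setting. A stranded mRNA library kit was used, per the labels' protocols. Beside the counts, the authors deposited a comparison of their own (a mean normalised signal, log2 fold changes with SE, a score, p-values and adjusted p-values), keyed by its own identifier column, which was matched by identifier.

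Symbols came from the authors' column where the identifiers match, otherwise from a reference table (29742 genes named). Counts were tested with edgeR 4.0.16 in R 4.3.3 (quasi-likelihood, robust, TMM, treatment only). filterByExpr kept 13341 genes and left out 16710. Each SE is the estimate divided by the root of its F statistic. Of the tested genes, 432 lay under the filter's cutoff in every DMSO library, of which 412 were called higher, and 48 in every panobinostat library, of which 42 were called lower. Exon lengths are unions of GENCODE release 29 exons, since RefSeq transcript lengths were not used here. Alternatives were other scaling factors, no filter, DESeq2 1.42.0, limma 3.58.1 voom with and without library weights, a replicate block and each library left out. The members and lists were chosen with earlier results of these data known, so they are no independent support. Named list genes are up to 3 called genes per direction with the largest change at 1 CPM or more; ARC, JDP2, SRF and the untested immediate early genes were chosen after their values were seen, and 1 gene that the rule names is not reported here. The edgeR biological coefficient of variation was 0.112 with all libraries and 0.0283 when panobinostat replicate 4 was left out.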

Additional observations from a re-analysis of the deposited data

How the results depend on the processing

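FOS, FOSB, FOSL2, JUNB, JUND and EGR1 kept their direction and their side of the threshold in all 14 alternatives; FOSL1, JUN and ATF3 kept their direction. Leaving out each library, all tested genes gave 3105 to 5024 rises and 2660 to 4969 falls. The log2 fold change was −0.22 to −0.12 for JUN and 0.60 to 0.97 for ATF3, and the members gave 3 to 4 rises and 2 to 3 falls. The other basic leucine zipper genes gave 3 to 8 rises, other immediate early genes 3 to 5 falls, partners and regulators 3 to 6 falls, and AU-rich element factors 1 to 2 rises and 4 to 8 falls. With no filter FOSL1 was not called (−1.26), 1 member fell, and AP-1 targets had 10 falls; the cause was not tested. JUN was called with library quality weights (−0.21). The replicate numbers pair no samples by the labels. Replicate 3 of DMSO and replicate 4 of panobinostat have no partner, so a fit with the replicate number as a block rests on replicates 1 and 2 and leaves both out of the contrast as well. It gave 5031 rises and 4950 falls over all genes, close to the counts without panobinostat replicate 4 (5024 and 4969); JUN was called (−0.18) and AU-rich element factors had 3 rises, against 2 with library size only and 2 with library quality weights. With counts not divided by length, the FOSB share of its family under panobinostat minus DMSO was 1.47 percentage points, against 0.75 per kilobase. That of JUND was 1.33, against −0.07 per kilobase, so both depend on the length setting. With the longest coding transcript as length, an alternative added after seeing the data, no share moved beyond the spread. Of the tested members FOSB had the fewest counts, 19 to 82 under panobinostat and 11 to 15 under DMSO.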

Other observations

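In the authors' deposited table, the log2 fold changes of FOS (0.90), FOSL1 (−1.10), FOSL2 (−0.89) and JUNB (0.36) had adjusted p-values of 0.00515, 2.32e-05, 8.29e-05 and 0.0344. In the authors' deposited table FOSB (1.07, adjusted p = 0.0616) and ATF3 (0.59, adjusted p = 0.0716) were not below 0.05, whereas both were called from the 6 libraries used here. On these 6 libraries DESeq2 gave 1.45 for FOSB (Wald test adjusted p = 0.00322) and 0.77 for ATF3 (Wald test adjusted p = 0.00947). Whether the authors' comparison rests on these 6 libraries alone was not tested. The deposited sum column holds 76184320 counts, against 52742848 in the 6 libraries, so it covers more than these libraries, and the rest was not analysed here.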
